A study of Homo sapiens with 23 samples.

Results

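MCM2 is a subunit of the MCM helicase, the ring that is loaded on replication origins in G1 and unwinds DNA when origins fire in S phase. Kinases that act on the helicase phosphorylate MCM2, and the serine written S139 is one of the sites that can carry a phosphate. Cells normally finish DNA synthesis before G2, and the helicase is taken off chromatin as forks meet, so chromatin of G2 cells is the last stage of the cycle at which this form could be mapped before mitosis. The regions described here are those where MCM2 phosphorylated at S139 (pMCM2) was called in G2 chromatin of K562 cells and at no overlapping place in chromatin of any earlier phase. They are called G2-alone regions. A region of the G2 list belonged to them if it shared not even 1 bp with a region of the 4 other pMCM2 lists, on chromosomes 1 to 22 and X. There were 41577 of them among 82751 G2 regions. The other 41174 G2 regions, which overlapped at least 1 other phase, are called shared regions. The members were chosen by the presence or absence of called pMCM2 regions in these 5 lists, so the number, read counts and widths of G2-alone regions are a description and no finding.

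K562 is a line from chronic myelogenous leukaemia, and its cells were separated by elutriation, that is by size, into 5 fractions. These stand for G1, for the early, middle and late parts of S phase, and for G2. The G2 fraction is set against the 4 other fractions of the same wild-type cells, and nothing in the labels names a drug or an engineered allele for them. Readouts outside the rule were nascent-strand lists of early, middle and late S fractions, which mark sites where DNA synthesis started, and ChIP lists of SIRT1 phosphorylated at T530 (pSIRT1) in each of the 5 fractions and in unfractionated K562 cells. SIRT1 is a NAD-dependent deacetylase. HCT116, a colon carcinoma line, gave lists of pMCM2, pSIRT1 and acetylated histone H4 lysine 16 (H4K16ac) from unsynchronised wild-type cells. It also gave nascent-strand lists of a SIRT1-depleted clone, of clones in which T530A or wild-type SIRT1 was put back, and of wild-type cells after aphidicolin and release. Each group had 1 library, so no difference below has a replicate check and no test was run. Exact 95% binomial intervals are given for the main shares and cover counting error only, since neighbouring regions are not independent.

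The G2 list was the longest and the richest in reads of the 5 pMCM2 lists. It held 82751 regions with 4260082 reads in them, against 24359 regions with 578108 reads in G1 and 43553 with 865093 in early S. Middle S had 35438 regions with 1388387 reads, and late S 42953 with 917926. Total library depths are unknown, as the lists give reads inside called regions only. G2-alone regions made up 50.2% of the G2 list. By the same rule, 24.98% of G1 regions, 38.0% of early S, 21.7% of middle S and 31.1% of late S regions were alone in their own phase. By this count G2 had the highest share of regions without a partner, but each other phase was compared with the long G2 list. Without the G2 list, 33.3% of G1, 50.1% of early S, 43.1% of middle S and 47.4% of late S regions were alone. The G2 share cannot be told apart from the length of its list. With each of the 5 lists limited to its 24359 regions with the most reads and the rule applied again, 7294 (29.9%) of the G2 regions were alone. These include regions that overlap a weaker region of another phase that was cut, so not all are members by the full lists. The share at equal length was not computed for the other phases. Among the G2 regions, 21579 overlapped 1 other phase, 10828 overlapped 2, 5215 overlapped 3 and 3552 overlapped all 4.

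G2-alone regions held fewer reads and were narrower than shared regions. The median was 27 reads (middle 50% from 21 to 37) in G2-alone regions and 43 reads (28 to 74) in shared regions. Median width was 1000 bp in G2-alone regions and 1600 bp in shared regions. In lists of equal length the medians were 61 reads and 2200 bp in G2-alone regions, and 82 reads and 2600 bp in shared regions. With the higher-count part of each list, that is counts at or above its median, they were 43 reads and 1800 bp in G2-alone regions, and 68 reads and 2200 bp in shared regions. Both versions applied the rule again to the shortened lists. Regions counted as alone there include some that overlap a weaker region of another phase in the full lists. With the full lists, reads per kb were closer, with a median of 28.3 in G2-alone regions and 30.8 in shared regions. The G2-alone regions covered 51.8 Mb, which was 39.3% of the length covered by the G2 list, and held 31.9% of its reads. The 5 pMCM2 lists of K562 lie on a 200 bp grid, and the smallest count accepted in G2 was 13 reads.

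The share of G2 regions that were alone fell with the read count. It was 74.9% of regions with 13 to 19 reads, 49.5% of those with 30 to 49 reads and 3.78% of those with 200 reads or more. Among the 100 G2 regions with the most reads, 2 were alone, and 27 of the first 1000. Within regions of 1000 to 1600 bp, 71.7% of the 25% with the fewest reads were alone, and 29.8% of the 25% with the most. The decline with reads was thus present at a fixed width. By width, the share was 67.3% at 400 bp and 17.7% above 3200 bp, while the narrowest class of 200 bp stood at 60.7%.

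**Figure D1:**
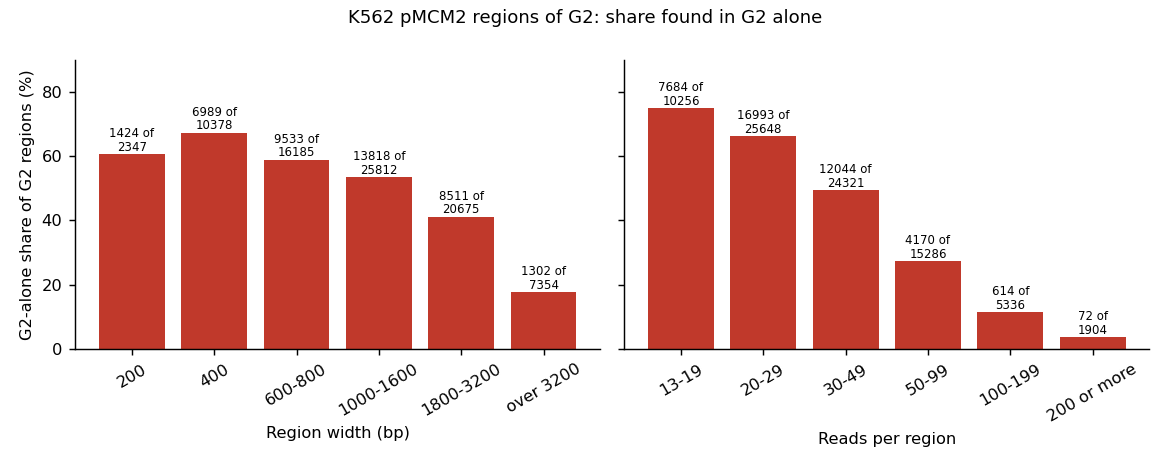
Share of K562 pMCM2 regions of G2 that were found in G2 alone, in percent, by region width in bp (left) and by reads per region (right), with the counts above each bar. The share falls to 17.7% in regions wider than 3200 bp and to 3.78% in regions with 200 reads or more.

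The rule excludes any overlap with pMCM2 of the other phases, so the gaps of G2-alone regions to it are a description, without a reference distance. The median gap to the nearest region of another phase was 7800 bp, with the middle 50% between 3000 and 19400 bp. Of the G2-alone regions, 3534 (8.50%) lay within 1 kb of another phase, and 3307 (7.95%) were at least 50 kb away from any. The most isolated one was 648800 bp away. Just inside the rule, 535 G2-alone regions lay 200 bp or less from a region of another phase, with a median of 29 reads and 1200 bp. Just outside it, 2780 shared regions overlapped other phases by 200 bp or less, with a median of 25 reads and 400 bp.

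The reads of G2-alone regions were also set against the lowest counts of the other lists. At G2 regions that paired with exactly 1 region of another list, reads per kb in the other list were a median of 0.317 times those in G2 for G1, 0.489 times for early S, 0.543 times for middle S and 0.512 times for late S. These pairs were called in both lists, so the ratios may be too high for sites near a threshold, which was not tested. Scaled by these ratios, the reads of G2-alone regions reached the lowest count listed for their width in 47.9% of cases for G1, 99.6% for early S, 62.8% for middle S and 97.6% for late S. In shared regions these shares were 77.8% for G1, 98.9% for early S, 85.8% for middle S and 98.4% for late S. In 19673 G2-alone regions (47.3%) the scaled count reached that lowest value in all 4 lists at once, against 76.4% of shared regions and 61.8% of all G2 regions. In 4205 G2-alone regions (10.1%) it reached the median count of their width in all 4 lists, against 32.9% of shared and 21.4% of all G2 regions. These 4205 regions had a median of 58 reads in G2. For the G2-alone regions outside the 19673, the scaled count was under the lowest count of at least 1 list. A region is G2-alone only where all 4 lists lack it, so this does not say why these regions were alone. That was not tested.

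Start sites of all 3 S fractions were found under G2-alone regions, less often than under shared regions. Of the G2-alone regions, 45.1% (44.6 to 45.6%) overlapped a nascent-strand region of at least 1 fraction, against 60.2% (59.7 to 60.7%) of shared regions and 52.6% of all G2 regions. Late S sites were met most, by 29.1% of G2-alone regions, then middle S sites by 28.1% and early S sites by 25.4%. In shared regions these shares were 43.3% for late S, 45.9% for middle S and 38.6% for early S, so there the middle S list came first. Over all G2 regions they were 36.2% for late S, 37% for middle S and 32% for early S. The late S list was also the longest, with 81959 start sites against 67803 in middle S and 73296 in early S. Seen from the start sites, 14.4% of late S, 16.8% of middle S and 14.1% of early S sites carried a G2-alone region, and 21.1% of late S, 26.3% of middle S and 20.8% of early S sites a shared one.

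G2-alone regions on a start site met sites of a single fraction more often than shared regions on a start site did. Of the 18752 G2-alone regions on any start site, 44.4% met a single fraction and 27.7% met all 3. Those on sites of all 3 fractions were 12.5% of all G2-alone regions, against 26.0% of shared regions and 19.2% of all G2 regions. Of the 24781 shared regions on any start site, 30.9% met a single fraction and 43.2% met all 3. Sites of late S alone accounted for 17.5% of the G2-alone regions on a start site and 10.6% of the shared ones. Sites of early S alone accounted for 11.0% of the G2-alone and 6.65% of the shared ones, and sites of middle S alone for 15.9% of the G2-alone and 13.6% of the shared ones. The start sites themselves were weaker. Late S sites that met G2-alone but no shared regions had a median of 67 reads, those that met shared regions 91 reads, and those that met no G2 region 57 reads. In middle S these medians were 72, 104 and 61 reads, and in early S 64, 87 and 55 reads.

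Width alone can set such shares, so they were also read within classes. Among regions of 1000 to 1600 bp with 20 to 29 reads, 48.5% of 7555 G2-alone regions and 59.7% of 3591 shared regions lay on a start site of any fraction. For those of 1800 to 3200 bp with 50 to 99 reads, the shares were 49.5% of 2029 G2-alone regions and 66.1% of 5278 shared regions. In the class of 200 bp the order was the reverse, with 27.1% of 1424 G2-alone regions and 21.5% of 923 shared regions.

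Phosphorylated SIRT1 lay at G2-alone regions mainly through its late S list. That list, the longest of the pSIRT1 lists, overlapped 40.2% (39.8 to 40.7%) of G2-alone regions, against 73.2% of shared regions and 56.6% of all G2 regions. The G1 list overlapped 16.3% of G2-alone regions and 43.1% of shared regions, with 29.7% of all G2 regions. The G2 list of pSIRT1, from the same phase as the regions, overlapped 7.17% (6.92 to 7.42%) of G2-alone regions, against 27.5% (27.0 to 27.9%) of shared regions and 17.3% of all G2 regions. With the 5 pMCM2 lists cut to equal length, this share was 21.6% of regions then alone and 45.8% of shared regions. With the higher-count part of each pMCM2 list it was 13.8% of regions then alone and 40.9% of shared regions. At the middle 200 bp of each region it was 4.56% of G2-alone and 17.3% of shared regions. Early S pSIRT1 overlapped 2159 G2-alone regions (5.19%) and 10295 of the 41174 shared regions, with 15% of all G2 regions. Middle S pSIRT1 overlapped 4.97% of G2-alone regions and 21.7% of shared regions, with 13.3% of all G2 regions. The lists differ in length and width, so the order of the phases is also the order of lists of 120213 regions in late S, 75682 in G1, 45881 in G2, 36314 in early S and 25542 in middle S.

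A pSIRT1 region of at least 1 phase overlapped 46.6% of G2-alone regions, 79.1% of shared regions and 62.8% of all G2 regions. A pSIRT1 region of late S and of no other phase was found at 10459 G2-alone regions (25.2%) and at 11032 shared regions (26.8%). A pSIRT1 region of G2 and of no other phase was found at 214 G2-alone regions (0.515%) and at 168 shared regions (0.408%). Regions with pSIRT1 in all 5 phases numbered 404 (0.972%) among G2-alone and 4799 (11.7%) among shared regions, with 6.29% of all G2 regions. From the side of pSIRT1, 6.62% of its G2 regions carried a G2-alone pMCM2 region and 25.9% carried a shared one. Among 1000 to 1600 bp regions with 30 to 49 reads, pSIRT1 of G2 overlapped 7.87% of 4700 G2-alone regions and 14.9% of 5003 shared regions. The unfractionated list overlapped 23.1% of G2-alone and 48.1% of shared regions, with 35.6% of all G2 regions.

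**Figure D2:**
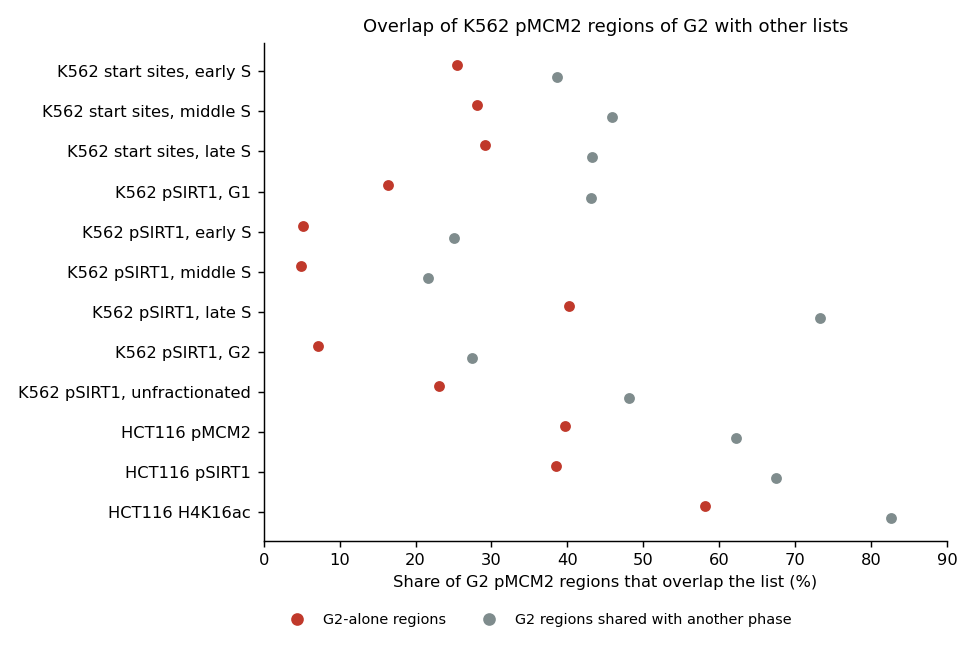
Share of K562 pMCM2 regions of G2 that overlap each other list by at least 1 bp, in percent, for the 41577 G2-alone regions (red) and the 41174 shared regions (grey). Bars of the exact 95% binomial interval are narrower than the points, and in every list shown the G2-alone share is below the shared one.

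The other cell line held many of the same places. Of the G2-alone regions, 39.7% (39.2 to 40.2%) overlapped pMCM2 of unsynchronised HCT116 cells, against 62.2% (61.7 to 62.6%) of shared regions and 50.9% of all G2 regions. With K562 pMCM2 lists of equal length and the rule applied again, the shares were 62.1% of regions then alone and 77.5% of shared regions. From the HCT116 side, 11.1% of its 151777 pMCM2 regions carried a G2-alone region and 18.4% a shared one. HCT116 pMCM2 regions that met G2-alone but no shared regions had a median of 55 reads, those that met shared regions 87 reads, and those that met no G2 region 41 reads. This overlap was also read by K562 start sites. HCT116 pMCM2 was found at 40.8% of G2-alone regions on a start site and at 38.8% of those on none. In shared regions the shares were 63.2% on a start site and 60.6% on none.

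H4K16ac of HCT116, a mark of open chromatin, overlapped 58.2% of G2-alone regions, 82.6% of shared regions and 70.3% of all G2 regions. For pSIRT1 of HCT116 the shares were 38.5% of G2-alone regions and 67.5% of shared regions, with 52.9% of all G2 regions. Nascent strands of the SIRT1-depleted clone overlapped 45.7% of G2-alone and 73.6% of shared regions, with 59.6% of all G2 regions. Those of the T530A rescue overlapped 37.7% of G2-alone, 61.3% of shared and 49.5% of all G2 regions. Those after aphidicolin overlapped 35.1% of G2-alone, 56.7% of shared and 45.9% of all G2 regions. Those of the wild-type rescue overlapped 34.5% of G2-alone, 56.0% of shared and 45.2% of all G2 regions. At least 1 of the 4 HCT116 nascent-strand lists met 67.6% of G2-alone, 86.6% of shared and 77% of all G2 regions, and all 4 met 13.2% of G2-alone, 35.9% of shared and 24.5% of all G2 regions. In regions of 200 bp the order was the reverse for pSIRT1 of HCT116, with 23.1% of G2-alone and 20.6% of shared regions. It was also reversed there, by less, for the T530A rescue, aphidicolin and wild-type rescue lists. It was not for the SIRT1-depleted list (26.6 and 27.7%) or H4K16ac (38.0 and 47.8%). Altogether 3080 G2-alone regions (7.41%) overlapped none of the K562 start-site and pSIRT1 lists and none of the HCT116 lists, against 462 shared regions (1.12%). These 3080 regions had a median of 21 reads and 600 bp.

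**Figure D3:**
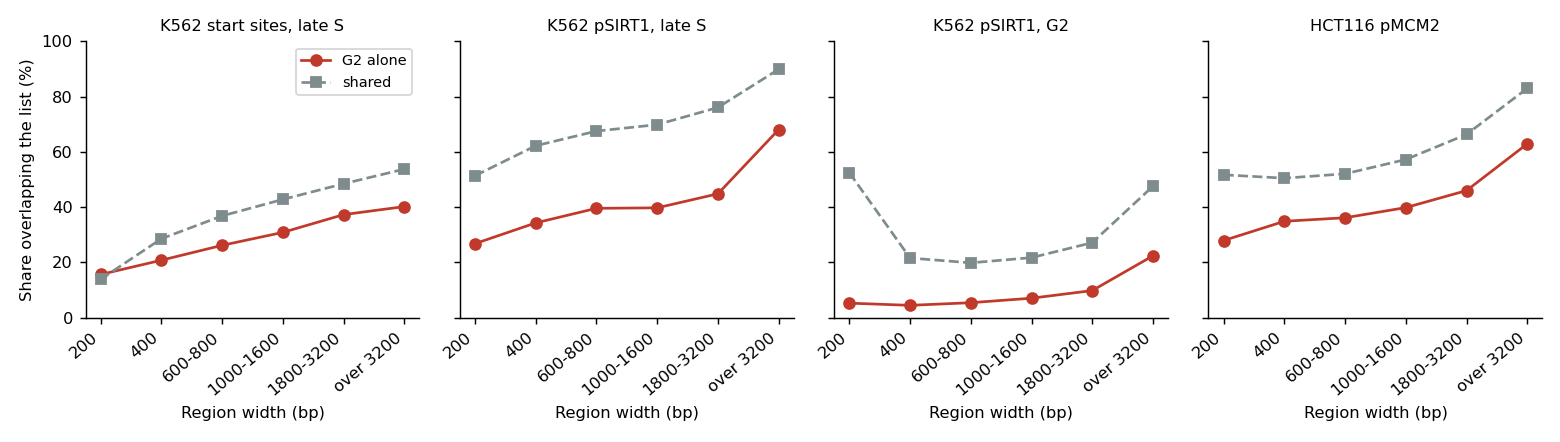
Share of regions that overlap 4 of the lists, in percent, by width of the K562 pMCM2 region of G2 in bp, for G2-alone regions (red circles) and shared regions (grey squares). G2-alone regions lie below shared ones in each width class of each panel except late S start sites at 200 bp, where the shares are 15.6% and 13.9%.

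Among the G2-alone regions, start sites and pSIRT1 followed the read count in different ways. In those with 13 to 19 reads, 34.8% lay on a start site of any fraction, 23.1% on pSIRT1 of late S and 3.11% on pSIRT1 of G2. In those with 30 to 49 reads the shares were 51.3% for start sites, 50.1% for late S pSIRT1 and 7.77% for G2 pSIRT1. The 614 regions with 100 to 199 reads lay on a start site in 29.97% of cases, but on late S pSIRT1 in 95.9% and on G2 pSIRT1 in 54.6%. The 72 regions with 200 reads or more lay on a start site in 30.6% of cases and on G2 pSIRT1 in 83.3%. Strong shared regions did not show the lower start-site share. Of the shared regions with 200 reads or more, 60.7% lay on a start site and 92.7% on G2 pSIRT1. The rise of pSIRT1 with reads was also seen in shared regions. With 13 to 19 reads, 43.7% of them lay on late S pSIRT1 and 17.3% on G2 pSIRT1. With 100 to 199 reads the shares were 97.3% and 63.4%. HCT116 pMCM2 was met by 29.8% of G2-alone regions with 13 to 19 reads and by 80.6% of those with 200 or more. In shared regions of the same read classes it was met by 41.5% and 93.1%. Of the 72 G2-alone regions with 200 reads or more, 12 (16.7%) were on chromosomes 9 and 22. Of the G2-alone regions with 13 to 19 reads, 4.31% were. These chromosomes carry the BCR-ABL1 fusion that K562 holds in amplified form. Among all 82751 G2 regions, 2782 were on chromosome 9 and 1141 on chromosome 22. This share was not computed for shared regions with 200 reads or more. Sheared K562 DNA was the control for peak calling but was not analysed here, so local copy number and pMCM2 cannot be told apart in these counts.

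**Figure D4:**
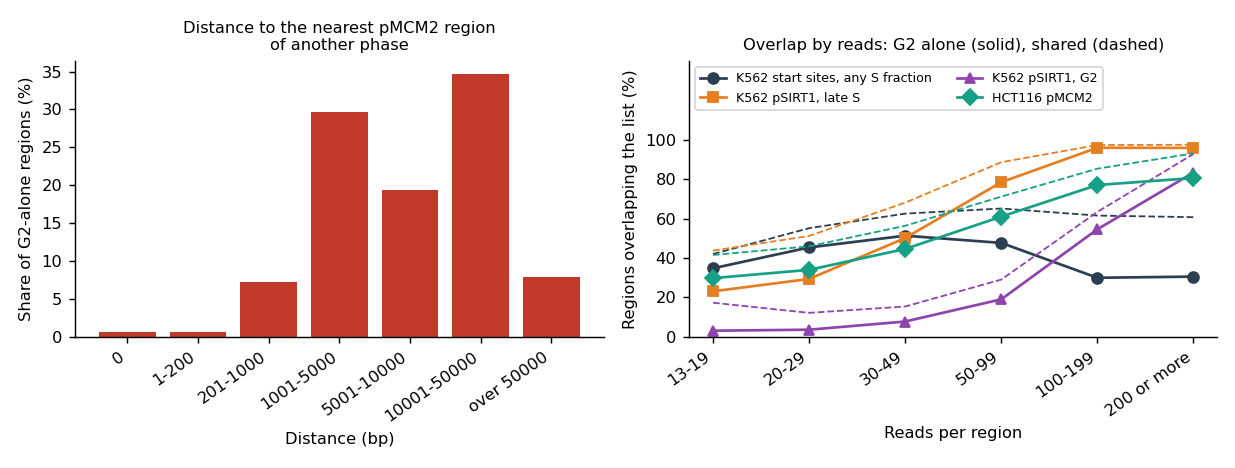
Left, distance in bp from G2-alone regions to the nearest K562 pMCM2 region of another phase, as percent of G2-alone regions. Right, percent of regions that overlap a list by reads per region, with G2-alone regions as solid lines and shared regions as dashed lines. The start-site share of G2-alone regions falls to 29.97% at 100 to 199 reads. Their late S pSIRT1 share reaches 95.9% there, against 97.3% in shared regions.

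G2-alone regions were spread over the genome. Of 2881 bins of 1 Mb that held a G2 region, 2857 held a G2-alone one, with a median of 13 per bin, a middle 50% of 7 to 20 and at most 52. G2-alone regions were a smaller part of the G2 list in the bins with the most G2 regions. The groups and the share use the same list, so this is a description. Bins were put into 5 groups by their number of G2 regions, low to high, with 20% of bins each. Of the G2 regions in these groups 60.8, 63.7, 56.2, 49.7 and 43.9% were alone, and the last group had 46 to 117 G2 regions per bin. By chromosome the share ran from 38.8% on chromosome 19 and 42.0% on chromosome 22 to 55.9% on chromosome 4 and 57.2% on chromosome 13, both of them gene-poor.

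The share was also higher where more of the start sites were late S sites. Bins with at least 20 early and late S sites were ordered by the part of these that came from the late S list. In the 20% of bins with the lowest late S part (19.05 to 47.1%), 44.7% of G2 regions were alone, and in the 20% with the highest (58.0 to 80.0%) 55.6% were. The groups between them gave 47.1, 49.4 and 52.4%. The number of G2-alone regions did not follow this order. From the lowest to the highest late S part, their mean per bin was 14.4, 17.4, 19.4, 18.0 and 14.8. The mean of shared regions per bin was 17.8, 19.5, 19.9, 16.4 and 11.8, so the lowest and highest groups differed mainly in shared regions. Among bins with more than 31 G2 regions, the median number, the share was 40.9% where the late S part was lowest and 50.7% where it was highest, and among the other bins 53.2 and 62.6%. Bins with more late S than early S sites held 66.2% of G2-alone regions and 61.0% of shared regions. The late S list is longer than the early S list, so this last split is not centred.

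**Figure D5:**
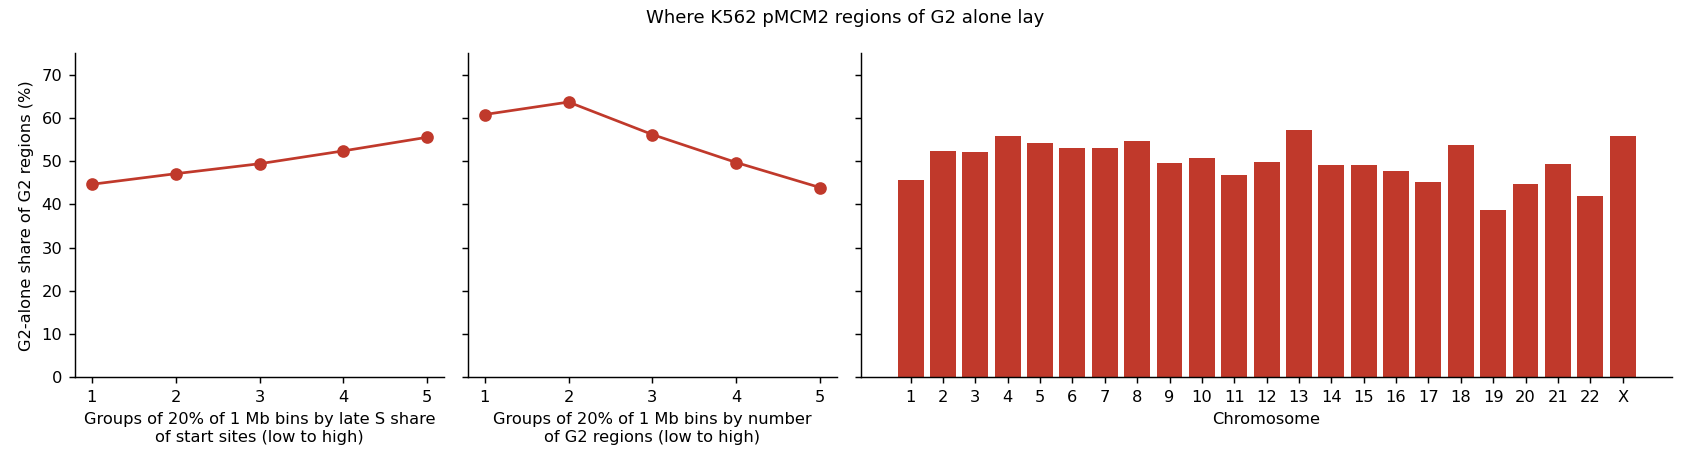
G2-alone share of K562 pMCM2 regions of G2, in percent, by 5 groups of 1 Mb bins ordered by the late S part of their start sites (left), by 5 groups ordered by the number of G2 regions (middle) and by chromosome (right). The share is 44.7% in the bins with the lowest late S part and 55.6% in those with the highest.

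The 1 Mb bins with the most G2-alone regions were at 115000001 to 116000000 of chromosome 12 and 24000001 to 25000000 of chromosome 18, each with 52, and at 83000001 to 84000000 of chromosome 16 with 50. The first held 39 shared regions, the second 30 and the third 52. The neighbour of the second, 25000001 to 26000000 of chromosome 18, held 20 G2 regions, all of them alone. It carried 33 early S, 13 middle S and 30 late S start sites. Bins at 40000001 to 41000000 of chromosome 13 and 41000001 to 42000000 of chromosome 5 came next, with 19 of 21 and 18 of 20 G2 regions alone. Their strongest G2-alone regions were modest, with 64 reads at 25365201 to 25366400 of chromosome 18, 54 reads at 40771801 to 40774600 of chromosome 13 and 48 reads at 41614001 to 41615800 of chromosome 5. In the bins with the most G2-alone regions, the strongest held 65 reads at 115255001 to 115257400 of chromosome 12, 58 reads at 24001601 to 24003200 of chromosome 18 and 142 reads at 83963801 to 83965400 of chromosome 16.

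The G2-alone region with the most reads, 1666, spanned 44542401 to 44557600 of chromosome 18 and ranked 34 in the whole G2 list. The nearest pMCM2 region of another phase was 32200 bp away. No K562 start site overlapped it. Yet pSIRT1 was listed there in each of the 5 phases, with 1488 reads in late S and 161 in G1, and HCT116 nascent strands were listed there in all 4 lists, with 2081 to 3233 reads. Unfractionated K562 pSIRT1 held 536 reads there, against a list median of 29, and pMCM2 of HCT116 held 467, against a median of 47. The scores were 916 for G2 pSIRT1, 589 for middle S pSIRT1 and 547 for H4K16ac of HCT116. High values at this place were thus found in most lists of both lines. Early S pSIRT1 of K562 held 60 reads there, and pSIRT1 of HCT116 held 48. Next came 22928801 to 22947400 of chromosome 22 with 1138 reads and 23217801 to 23224800 of chromosome 22 with 719 reads. A region at 133714801 to 133723600 of chromosome 9 had 688 reads, and one at 21131401 to 21143400 of chromosome 22 had 571 reads. None of these 5 regions overlapped a K562 start site of any fraction, and all 5 overlapped pSIRT1 of middle S, late S and G2.

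By reads per kb, in regions at least 1000 bp wide, the first was at 161441001 to 161442200 of chromosome 1 with 350.0 reads per kb. Late S pSIRT1 counted 5609 reads in the region that overlapped it, and G1 pSIRT1 2016. HCT116 nascent strands counted 10879 reads there in the SIRT1-depleted clone, 7218 in the T530A rescue and 7271 after aphidicolin. The wild-type rescue list had no region there, and pMCM2 of HCT116 counted 1271 reads. Local copy number was not examined. This region was followed by 134177601 to 134178600 of chromosome 10 with 179 reads per kb and 157373001 to 157374200 of chromosome 7 with 177.5. Then came 82116401 to 82117800 of chromosome 10 with 168, and 2163201 to 2164600 of chromosome 5 with 160.0. Each of the 5 overlapped pSIRT1 of G2 and pMCM2 of HCT116, and 2 of them overlapped a K562 start site.

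Few G2-alone regions carried 5 of these readouts at once. Start sites of early, middle and late S, pSIRT1 of G2 and HCT116 pMCM2 met at 243 of them (0.584%), against 2492 shared regions (6.05%). The region of chromosome 7 named above led them with 213 reads. It overlapped start sites with 136 reads in early S, 465 in middle S and 323 in late S. After it came 128098001 to 128098600 of chromosome 5 with 186 reads, 44052401 to 44056200 of chromosome 21 with 172, 158670601 to 158672600 of chromosome 7 with 170.0 and 51472801 to 51474800 of chromosome 19 with 164. The last of these overlapped an HCT116 pMCM2 region with 1902 reads and start sites with 530 reads in early S, 861 in middle S and 596 in late S, yet pMCM2 of another K562 phase was listed only 400 bp away.

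Among G2-alone regions at least 50 kb from any other phase, the one with the most reads was at 30815201 to 30824800 of chromosome X with 361 reads, 123000 bp from the nearest. A region at 115353001 to 115358000 of chromosome 6 with 155 reads was 255600 bp from the nearest and overlapped start sites with 337 reads in early S, 401 in middle S and 316 in late S. The others were at 72653001 to 72654600 of chromosome 9 with 178 reads, 179333801 to 179336600 of chromosome 1 with 149 and 89619001 to 89620400 of chromosome 4 with 148. The region of chromosome 4 overlapped start sites of all 3 fractions, pSIRT1 of all 5 phases and an HCT116 pMCM2 region with 954 reads.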

How the data were processed

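Region lists of 21 libraries were used, 1 library per group, and the 2 libraries of sheared genomic DNA were not used here. Coordinates are on hg19 and the lists came from MACS and SICER, per the submitters' processing notes, without versions or settings. Aligner and thresholds: not given in the sources used here. Since no list has a header, units were inferred from the values. In 18 lists the authors deposited a whole number per region, taken as a read count and not scaled. Decimal numbers in the middle S and G2 lists of K562 pSIRT1, and the peak values of HCT116 H4K16ac, were deposited as a score and never treated as reads.

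Regions on chromosomes 1 to 22 and X were kept, and an overlap was at least 1 bp. Scaled counts used the median ratio of reads per kb at regions paired 1 to 1. Bins were 1 Mb, and a region belonged to the bin of its middle. Intervals are exact (Clopper-Pearson). Named regions were, among G2-alone regions, the 5 with most reads, the 5 with most reads per kb from 1000 bp of width, the 5 with most reads among those on all start-site lists, G2 pSIRT1 and HCT116 pMCM2, the 5 with most reads at least 50 kb from other phases, and the 3 bins with most, and the 3 with the highest share among at least 20. Members and rules were chosen with earlier results of these data known. The overlap code was tested on simulated data. A genome of hg19 was not used here, so neither sequences nor genes under the regions are given. Python 3.11.15, numpy 2.4.6, pandas 2.3.3, scipy 1.17.1 and matplotlib 3.10.9 were used.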

Additional observations from a re-analysis of the deposited data

How the results depend on the processing

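No paired analysis was possible because each group had 1 library. The number of G2-alone regions depended on how much of each list was used. It was 22008 with the higher-count part of each pMCM2 list (counts at or above its median) and 7294 of 24359 with equal list lengths, while the other alternatives gave 38043 to 49629. The higher-count and equal-length versions applied the rule again to shortened lists. Their alone regions include some that overlap weaker regions of another phase in the full lists. In these higher-count and equal-length versions the median reads were 43 and 61, and the median widths 1800 and 2200 bp. G2-alone regions on a start site of any S fraction were 55.5% with the higher-count part, 52.0% with equal lengths, 45.7% where another phase had to share 50% of the shorter region, 44.5% where regions within 1 kb counted as shared, 42.9% where the readout had to share 50% of the shorter region and 41.4% at the middle 200 bp of each region, an alternative chosen after seeing the data. For start sites of late S the shares were 38.4, 36.2, 29.6, 26.9 and 25.6% under these settings without that of 1 kb. For pSIRT1 of G2 they were 13.8% with the higher-count part, 21.6% with equal lengths, 6.91% with 1 kb, 6.84% with 50% for the readout and 4.56% at the middle. For HCT116 pMCM2 they were 53.4, 62.1, 40.2, 39.1, 37.8 and 30.1% in the order of the first series, and 39.2% without chromosomes 9 and 22. Bins with more late S than early S sites held 64.2% with the higher-count part, 60.9% with equal lengths, 61.6% in 500 kb bins and 77.5% in 5 Mb bins. In each of 7 alternatives for each of the 4 overlap shares the G2-alone share stayed below the shared one, and in each of 7 for the late S bins it stayed above. With equal list lengths 29.9% of the G2 regions used were alone, against 50.2% with the full lists. Depth is unknown for every list.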
